A study of Neurospora crassa with 12 samples.

Results

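The response of wild-type *Neurospora crassa* to sulfur starvation was described from 6 of the 12 mycelial RNA-seq libraries of the series, those being the 3 wild-type cultures exposed to sulfur starvation and the 3 wild-type cultures exposed to 24 μM sulfate. The libraries were chosen by strain and medium, not by any measured value, and all genes of the files were considered, including those with changes under 2-fold and those under 10 FPKM (an expression level scaled to the length of the transcript and to the number of mapped reads in the library). The wild type was FGSC 4200, mating type a. Mycelia of all groups had first grown for 24 h in Vogel's minimal medium with methionine at 500 mg per liter, and were then held for 4 h in medium with 24 μM sulfate or with no sulfur source, at the same temperature and in constant light. The other 6 libraries were of a *cys-3* mutant, in which a hygromycin resistance cassette replaced part of the gene, in the same media. They entered the fit, which shares 1 estimate of the spread, and are otherwise used only where the strains are compared. Each group held 3 cultures. They were independent, but by the methods some may have been inoculated on the same day.

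Fungi take up sulfate through permeases, activate it with ATP, reduce it to sulfide and build it into cysteine and methionine. In *N. crassa* this supply is governed by CYS-3, a basic leucine zipper transcription factor that turns on sulfur acquisition genes when the favored sulfur sources run out. SCON-2 is an F-box protein and SCON-3 a Skp1 homolog of the ubiquitin ligase that restrains CYS-3 when sulfur is plentiful. Cysteine is also the source of glutathione, of iron-sulfur clusters and, through methionine, of *S*-adenosylmethionine, the methyl donor of the cell.

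The implied depth of the 6 libraries, worked out from the confidence interval that Cufflinks gave each FPKM, was 7.62 to 11.2 megareads, and replicates correlated with Pearson's r of 0.991 to 0.996 across genes, which are not independent replicates. For 154 of 6573 genes with at least 50 implied reads in each of the 6 libraries, the implied reads did not follow FPKM, in that the log2 ratio of the 2 values varied between libraries with an SD over 0.2 (median SD over these genes 0.0405). *cys-3*, *ilv-2*, *pgk*, *emp-7* and *adsk-1* were among these, and the implied depth is approximate. A list of 6 markers of asexual spore formation (*con-6*, *con-8*, *con-10*, *con-13*, *eas* and *fl*) checked the mycelial label. Their summed level was 22.2 to 37.1 FPKM in 24 μM sulfate and 28.8 to 37.5 FPKM in sulfur starvation. *con-13* was the lowest, at or below 0.458 FPKM in all 6 libraries. *con-8*, *eas* and *fl* were detected in all of them, at 4.30 to 7.78, 6.83 to 16.7 and 8.18 to 15.7 FPKM. In cultures of this kind, fewer cells of a type and less RNA per cell cannot be told apart.

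Of 7737 genes whose mean reached 1 FPKM in some group, 1252 (16.2%) differed between the media at an adjusted p under 0.05 (limma with Benjamini-Hochberg adjustment, used for every adjusted p here). 650 genes rose in sulfur starvation, 8.4% of those tested, and 602 fell, 7.78%. The rises and falls were unlike in size. Among the changes of at least 2-fold in the ratio of group means, 191 genes rose (2.47% of those tested) and 34 fell (0.439%), whereas among called changes under 1.5-fold 289 rose and 386 fell. Between these bounds 170 rose and 182 fell. Changes under 2-fold thus made up 82.0% of all calls. The median rise was 1.56-fold and the median fall 1.39-fold, and 41 genes rose at least 10-fold while 3 fell that far. The libraries of the media did not overlap for 1204 of the called genes and for 29.4% of all tested genes.

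**Figure D1:**
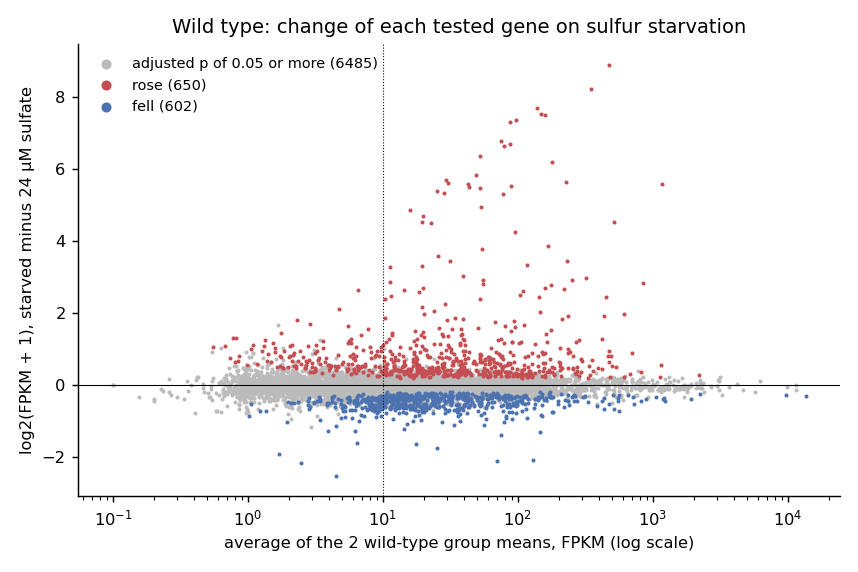
Each point is 1 of the 7737 tested genes, with the average of the wild-type group means in FPKM on a log axis against the difference in log2(FPKM + 1) between sulfur starvation and 24 μM sulfate; colors mark the 650 genes that rose and the 602 that fell, and the dotted line stands at 10 FPKM. The rises reach far above the falls, and small called changes of both signs lie along the whole range of abundance.

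**Figure D2:**
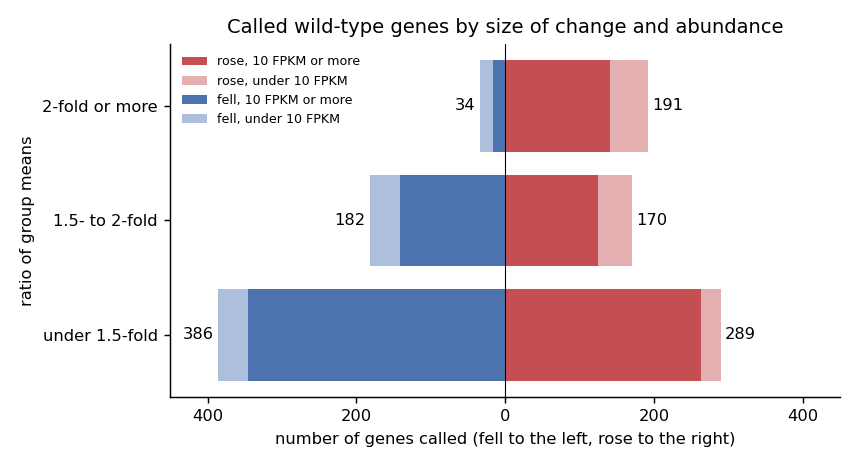
Bars count the called wild-type genes by the ratio of their group means, falls to the left and rises to the right, with the paler part for genes under 10 FPKM in both media. Rises outnumber falls 191 to 34 at 2-fold or more, and falls outnumber rises 386 to 289 under 1.5-fold.

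These counts depended on single libraries. Without 24 μM sulfate replicate 1, 690 genes were called, 446 up and 244 down. Without starved replicate 3 there were 805 calls, 353 of them falls, and without 24 μM sulfate replicate 3 there were 397 falls. limma-voom on the implied reads, chosen after seeing the data, gave, with that limit, 565 rises and 832 falls. The count of 2-fold rises was steadier than that of 2-fold falls, which was 17 without 24 μM sulfate replicate 1 and 54 without 24 μM sulfate replicate 2. Of 158 called genes that were named here or chosen by the naming rule, 41 no longer passed without 24 μM sulfate replicate 1, 37 without starved replicate 3 and 29 without 24 μM sulfate replicate 3.

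Weighed by abundance, the 191 genes that rose at least 2-fold held 0.751% ± 0.0749 (SD, n = 3) of all FPKM in 24 μM sulfate and 4.32% ± 1.08 in sulfur starvation. The genes that fell by under 2-fold held 12.8% ± 0.479 and 9.81% ± 0.370. The genes were called on these libraries, so the shares are a description.

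The regulators and the genes of sulfate reduction rose, apart from *scon-3*. *cys-3* was measured at 66.3, 66.6 and 58.7 FPKM in 24 μM sulfate and 132, 146 and 162 FPKM in sulfur starvation. The groups did not overlap, and *cys-3* rose 2.30-fold (adjusted p = 5.15e-07), although it shares 1563 bases with the locus NCU03535 and the reads carry no strand. NCU03535 went the other way, at a ratio of starved to 24 μM sulfate of 0.262 (0.192 to 0.370 when 1 wild-type library was left out). How Cufflinks divided reads between these 2 loci was not tested. *scon-2* went from 15.7 ± 0.350 to 49.2 ± 11.3 FPKM (mean ± SD, n = 3), a rise of 3.13-fold with an adjusted p of 4.32e-06, while *scon-3* was at 266 ± 34.3 to 298 ± 30.1 FPKM with overlapping libraries (adjusted p = 0.311). All 5 genes of the route from sulfate to sulfide rose: *cys-5* (3.33-fold, adjusted p = 5.34e-05), annotated as phosphoadenosine phosphosulfate reductase, *cys-2* (2.22-fold, adjusted p = 0.00157), *cys-11* (1.63-fold, adjusted p = 7.22e-04), *adsk-1* (1.57-fold, adjusted p = 0.00708), annotated as adenylyl-sulfate kinase, and *cys-4* (1.52-fold, adjusted p = 0.00221). Of 8 sulfur transporters 6 rose and none fell, with a median difference of 3.24 on the log2(FPKM + 1) scale against -0.03 over all tested genes.

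Of 23 tested genes of sulfur metabolism 14 rose and 1 fell (60.9% and 4.35%, against 8.4% and 7.78% of all tested genes). Their median log2 difference was 0.72. Several of the largest rises at 10 FPKM or more were annotated for the breakdown of organic sulfur compounds. *tdo-4*, annotated as a taurine dioxygenase, was measured at 1.61, 0.581 and 0.537 FPKM in 24 μM sulfate and 524, 1226 and 1091 FPKM in sulfur starvation, a rise of 1041-fold (adjusted p = 2.68e-09). *ars-1*, the arylsulfatase that frees sulfate from aryl esters, had 0.378, 0.183 and 0.188 FPKM in 24 μM sulfate and 73.1, 121 and 119 FPKM in sulfur starvation and rose 419-fold (adjusted p = 1.75e-10). In both genes every starved library lay far above the 24 μM sulfate libraries, and starved replicate 1 was the lowest of the 3. The same replicate was lowest for *tdo-2* (546-fold), NCU05883 (1221-fold), NCU05156 (546-fold), NCU05887 (1253-fold), *suc-2* (771-fold), NCU05888 (267-fold), NCU07928 (316-fold), *cys-14* (81.9-fold), *mox-5* (152-fold), NCU06040 (428-fold), *tdo-5* (58.3-fold) and NCU09039 (419-fold). These ratios rest on low levels in 24 μM sulfate, where NCU05883 and NCU05887 had at most 9.30 and 9 implied reads in a library. Without 24 μM sulfate replicate 1 the rises of *tdo-4*, NCU05883, NCU05887 and NCU06040 were 1694-fold, 2011-fold, 2038-fold and 669-fold. *cys-14* encodes a sulfate permease. NCU10016, annotated as a desulfurizing enzyme, had no implied read in any 24 μM sulfate library and 81.7, 258 and 187 FPKM in the starved libraries. That is at least 365-fold higher when set against the level of 3 reads per library. It shares 1452 bases with NCU15835, which rose 1.35-fold, and NCU05883 shares 1463 bases with *gh5-5*, which rose 2.00-fold. How Cufflinks divided reads between such neighbors was not tested.

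Among 46 tested genes of cysteine and methionine metabolism, 13 rose and 5 fell (28.3% and 10.9%, against 8.4% and 7.78% of all tested genes). The median log2 difference was -0.01, and the share of falls was near that of all genes. Leaving out 1 wild-type library gave 3 to 7 falls. The largest rises were *cys-16* (7.69-fold, adjusted p = 6.15e-07), *met-20* (2.95-fold, adjusted p = 6.14e-06), annotated as homocysteine *S*-methyltransferase, *met-21* (2.91-fold, adjusted p = 4.63e-07) and NCU00147 (2.33-fold, adjusted p = 1.29e-06), annotated in the ARD family, whose members act in methionine salvage. *met-8*, the methionine synthase, was already abundant and moved less. It was measured at 958, 887 and 958 FPKM in 24 μM sulfate and 1381, 1229.7 and 1511 FPKM in sulfur starvation, and rose 1.47-fold (adjusted p = 0.00603). Its group ranges did not overlap. *eth-1*, the *S*-adenosylmethionine synthetase, rose 1.92-fold (adjusted p = 5.28e-05). The falls were *cys-22* (1.88-fold, adjusted p = 0.00477), *for* (1.35-fold, adjusted p = 0.0118), *hom-1* (1.33-fold, adjusted p = 0.00620), *met-6* (1.32-fold, adjusted p = 0.0162) and *aki-1* (1.29-fold, adjusted p = 0.0305), and *hom-1* is also a gene of threonine synthesis.

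Of 45 genes named for amino acid auxotrophs, 18 fell and 1 rose, that is 40% fell against 7.78% of all tested genes, and 44 of the 45 differences were below 0, with a median of -0.32. None of the falls reached 2-fold. *ilv-2*, of isoleucine and valine synthesis, had 743, 608 and 768 FPKM in 24 μM sulfate and 452, 433 and 387 FPKM in sulfur starvation and fell 1.66-fold (adjusted p = 2.20e-04), and its implied reads do not follow its FPKM, so the limma-voom fit does not bear on this fall. *leu-2*, of leucine synthesis, fell 1.66-fold (adjusted p = 3.43e-04), *lys-3*, of lysine synthesis, fell 1.58-fold (adjusted p = 5.43e-04), and *arg-3* (1.85-fold, adjusted p = 0.0122), of arginine synthesis, had the largest of the falls that passed. *arg-15* was the exception, at 18.7, 18.2 and 18.8 FPKM in 24 μM sulfate and 27.97, 38.8 and 32.7 FPKM in sulfur starvation, a rise of 1.78-fold (adjusted p = 2.30e-04). Leaving out single wild-type libraries changed the number of falls from 9 (without 24 μM sulfate replicate 3) to 21 (without 24 μM sulfate replicate 2), and the median stayed below 0 under all 3 other scalings of the libraries (-0.39 to -0.30).

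Of 11 tested genes of nitrogen use 2 rose and 1 fell (18.2% and 9.09%, against 8.4% and 7.78% of all tested genes), while 8 of the 11 differences were below 0, with a median of -0.15. *gdh-1*, the NAD-specific glutamate dehydrogenase that works in glutamate breakdown, was measured at 13.4, 13.9 and 13.7 FPKM in 24 μM sulfate and 31.6, 63.9 and 68.8 FPKM in sulfur starvation. All starved libraries lay above all others, with starved replicate 1 lowest, and the rise was 4.01-fold (adjusted p = 7.33e-05). *nit-3*, the nitrate reductase, went from 39.0 ± 2.88 to 65.5 ± 4.81 FPKM (mean ± SD, n = 3), a rise of 1.68-fold with an adjusted p of 1.12e-04, and *gln-1*, glutamine synthetase, fell 1.25-fold (adjusted p = 0.00615).  Of 6 tested genes of purine synthesis 3 fell (50% against 7.78%), of which *ad-7* (1.63-fold, adjusted p = 0.0242) was the largest.

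Among 10 antioxidant enzyme genes 5 rose and 1 fell (50% and 10%, against 8.4% and 7.78% of all tested genes). *sod-1*, a copper-zinc superoxide dismutase, had 409, 462 and 452 FPKM in 24 μM sulfate and 580.4, 619 and 663 FPKM in sulfur starvation, which did not overlap, and rose 1.41-fold (adjusted p = 3.39e-04). The glutathione *S*-transferase gene *gst-2* rose 2.00-fold (adjusted p = 2.33e-04), and the catalase genes *cat-4* and *cat-3* rose 2.02-fold (adjusted p = 0.00127) and 1.43-fold (adjusted p = 0.00485). *gst-3* (1.32-fold, adjusted p = 0.0278) also rose, while *cat-2* (1.52-fold, adjusted p = 0.0441) fell.

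Of 30 proteasome genes 9 rose and 1 fell (30% and 3.33%, against 8.4% and 7.78% of all tested genes). The median difference was 0.18, and 29 of the 30 differences were above 0, most of them without passing the test. *rpt-3*, an ATPase of the regulatory particle, had 59.2, 65.8 and 61.1 FPKM in 24 μM sulfate and 78.6, 75.4 and 77.9 FPKM in sulfur starvation and rose 1.25-fold (adjusted p = 0.00419). The core subunit gene *pcb-6* rose 1.24-fold (adjusted p = 0.00364). The gene listed as *rpn-4* was the lone fall, at 1.49-fold (adjusted p = 0.00529). NADH dehydrogenase (complex I) had 28 of 29 differences above 0 and a median of 0.18, but only 5 genes rose (17.2% against 8.4% of all tested genes), the largest rise among them being that of *nuo17.8* (1.20-fold, adjusted p = 0.0358).  Without single wild-type libraries the proteasome rises went from 2 (without 24 μM sulfate replicate 1) to 13 (without starved replicate 1), and the complex I rises from 0 (without 24 μM sulfate replicate 3) to 6 (without 24 μM sulfate replicate 2).

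**Figure D3:**
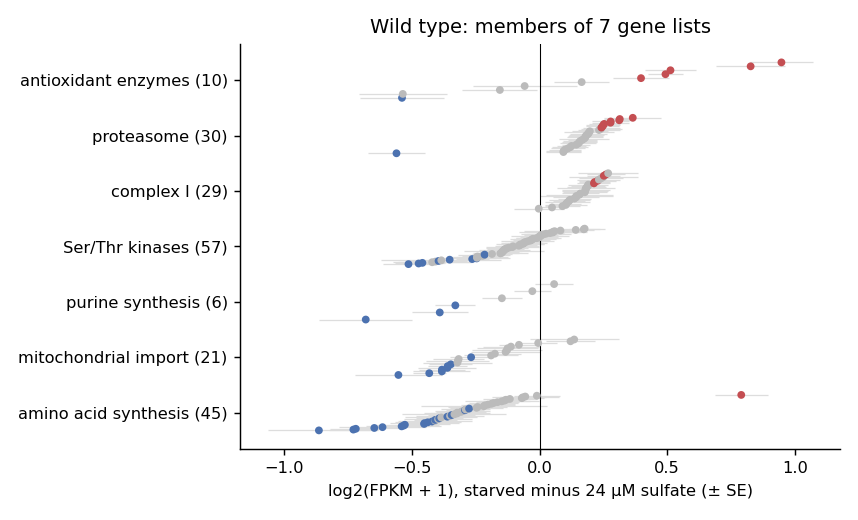
Points are the tested members of 7 gene lists, with the number of genes in parentheses, placed by the wild-type difference in log2(FPKM + 1) with its SE, and colored where the adjusted p was under 0.05. Members of the amino acid synthesis list lie mostly below 0 (18 fell), those of the proteasome and complex I lists mostly just above 0 (9 and 5 rose).

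Of 21 genes of mitochondrial protein import 8 fell and none rose (38.1% against 7.78% of all genes), with a median of -0.27. *tim22*, of the carrier translocase of the inner membrane, had 16.9, 16.7 and 15.9 FPKM in 24 μM sulfate and 13.1, 12.2 and 12.5 FPKM in sulfur starvation, a gap wider than the spread of either group, and fell 1.31-fold (adjusted p = 0.00731). *tim14* and *tom22* fell 1.35-fold (adjusted p = 6.27e-04) and 1.31-fold (adjusted p = 0.0119). The number of falls went from 2 (without 24 μM sulfate replicate 1) to 12 (without 24 μM sulfate replicate 2) when 1 wild-type library was left out. Of 8 genes of alternative respiration 3 fell (37.5% against 7.78%), a number that went from 1 (without 24 μM sulfate replicate 1) to 3 (without 24 μM sulfate replicate 2) when 1 wild-type library was left out. *aod-1*, the alternative oxidase, was measured at 57.1, 51.6 and 48.7 FPKM in 24 μM sulfate and 35.7, 37.6 and 33.1 FPKM in sulfur starvation and fell 1.48-fold (adjusted p = 9.48e-04), and *aod-5* and the alternative NADH dehydrogenase gene *ndi-1* fell 1.19-fold (adjusted p = 0.0420) and 1.78-fold (adjusted p = 0.0451). Of 12 genes of the other respiratory chain complexes, *cyt-1* (1.25-fold) and *cya-5* (1.47-fold) fell (16.7% against 7.78%). Of the 12 differences 8 were above 0 and the median was 0.07, but it was -0.04 to 0.09 under the other scalings. Leaving out 1 wild-type library gave 0 to 3 falls.

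The most abundant called genes with changes under 2-fold included several of glycolysis among the falls. *gpd-1*, glyceraldehyde-3-phosphate dehydrogenase, was the most abundant gene of starved mycelia, at 14656, 15966 and 14192 FPKM in 24 μM sulfate and 13074, 12068 and 11494 FPKM in sulfur starvation. It fell 1.22-fold (adjusted p = 0.0306), and no starved library reached the 24 μM sulfate range. *pgk*, phosphoglycerate kinase, fell 1.31-fold (adjusted p = 0.0150), and *emp-7* (1.20-fold, adjusted p = 0.0482), *emp-6* (1.26-fold, adjusted p = 0.0162) and *ace-8* (1.19-fold, adjusted p = 0.0461) fell likewise. Each of these 5 falls was lost when some single wild-type library was left out, and that of *gpd-1* also under quantile normalization (adjusted p = 0.507). Without 24 μM sulfate replicate 1 or starved replicate 3 the adjusted p of *gpd-1* was 0.0806 or 0.121. The other abundant falls were *hsp70-2* (1.36-fold, adjusted p = 0.0409), NCU05404 (1.28-fold), NCU04314 (1.30-fold), NCU10051 (1.31-fold) and *gel-3* (1.37-fold). Abundant rises under 2-fold were those of *acw-9* (1.21-fold), an anchored cell wall protein, *por* (1.17-fold), the mitochondrial porin, NCU11338 (1.30-fold), NCU08397 (1.82-fold), NCU04907 (1.23-fold), NCU02807 (1.18-fold), NCU09874 (1.43-fold) and NCU06556 (1.74-fold), beside *met-8* and *sod-1*. The other genes among the 10 most abundant of starved mycelia apart from *gpd-1* and *emp-7* did not pass the test, at ratios of starved to 24 μM sulfate of 0.990 (*nmt-1*), 0.912 (NCU06110), 0.955 (*tef-1*, elongation factor 1-alpha), 1.08 (NCU16635), 0.883 (*cfp*), 0.905 (*cmt*), 1.03 (*aac*, the ADP/ATP carrier) and 0.961 (NCU08389).

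**Figure D4:**
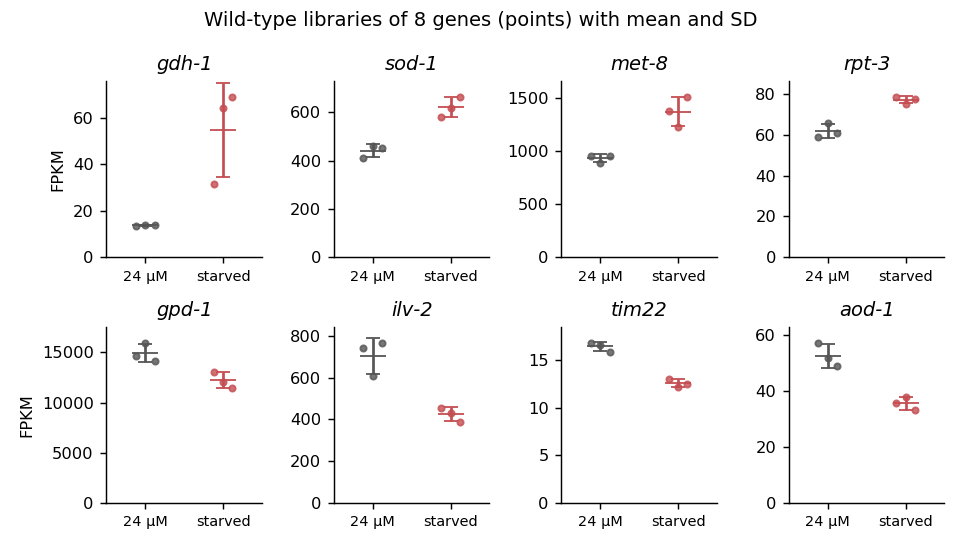
Points are the 3 wild-type libraries of each medium, in FPKM on axes that start at 0, with the mean and SD, for 8 genes that carry the changes described. In each panel the libraries of the media do not overlap, though most changes are under 2-fold.

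On the log2(FPKM + 1) scale the largest falls at 10 FPKM or more were led by *orp-1*, annotated as a hypothetical protein, at 157, 119.8 and 65.4 FPKM in 24 μM sulfate and 36.1, 17.2 and 22.3 FPKM in sulfur starvation (4.53-fold, adjusted p = 7.22e-04). *hsp30*, a small heat shock protein, followed at 320.2, 195 and 122 FPKM in 24 μM sulfate and 48.5, 41.5 and 46.6 FPKM in sulfur starvation (4.67-fold, adjusted p = 3.43e-04). In both genes the 24 μM sulfate libraries spread widely, with replicate 1 the highest and replicate 3 the lowest, and the starved libraries were close together. The others were *hsp30-2* (3.67-fold), *ccg-9* (3.53-fold), *sut-22* (3.91-fold), annotated as a monosaccharide transporter, NCU00399 (2.85-fold), NCU08720 (2.66-fold), *sit-9* (2.73-fold), of siderophore synthesis by its annotation, *znf-19* (2.37-fold), *adh-8* (2.30-fold), NCU00984 (2.22-fold), *hsp98* (2.19-fold), *ncw-5* (2.16-fold), *fdh* (2.05-fold) and *emp-11* (2.08-fold). The heat shock list of 10 genes does not hold *hsp30-2*. Of its genes 3 fell and 1 rose (30% and 10%, against 7.78% and 8.4% of all tested genes). The falls were those of *hsp30*, *hsp98* and *hsp70-2*, and *hsp90a* (1.44-fold, adjusted p = 0.00124) rose. The number of falls went from 2 to 5 when 1 wild-type library was left out.

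The remaining lists held few calls. No gene passed the test among 13 of the vacuolar ATPase, 3 of sterol synthesis, 8 cytosolic ribosomal proteins named *crp*, 9 histones and 6 tested genes of conidia. A lone rise was seen for *csn-1* (1.23-fold, adjusted p = 0.0464) of 7 genes of the COP9 signalosome, *pex11* (1.48-fold, adjusted p = 7.66e-04) of 20 of peroxisome biogenesis, *tca-16* (1.52-fold, adjusted p = 1.01e-04) of 16 of the tricarboxylic acid cycle and *mus-53* (1.71-fold, adjusted p = 0.00319) of 32 of DNA repair. These are 14.3%, 5%, 6.25% and 3.13% of the lists, against 8.4% of all tested genes. Leaving out 1 wild-type library gave 0 to 1 rises in the COP9 signalosome list. Of 54 glycosyl hydrolases 9 rose and 2 fell (16.7% and 3.70%, against 8.4% and 7.78% of all tested genes), with *gh61-2* (3.18-fold), *gh47-2* (1.98-fold), *gh3-5* (1.92-fold) and *gh16-1* (1.40-fold) the clearest rises. Of 17 cell wall proteins 2 rose and 4 fell (11.8% and 23.5%). Of 57 serine/threonine kinases 8 fell (14.04%), all by under 1.5-fold, with *stk-24* (1.39-fold, adjusted p = 0.00399) the clearest. Of 12 tested genes of a clock list, which also holds *frq*, *wc-1*, *wc-2* and *vvd*, *ccg-9*, *ccg-13* and *ccg-14* fell (25% against 7.78%). Leaving out 1 wild-type library gave 1 to 3 falls in that list.

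Genes under 10 FPKM in both media gave 220 calls among 2826 tested (7.78%), against 21.01% of the more abundant genes, and 123 of them rose and 97 fell. They rested on a median of 119 implied reads per library. NCU09456 was measured at 1.62, 0.634 and 1.12 FPKM in 24 μM sulfate and 5.05, 11.8 and 8.21 FPKM in sulfur starvation (7.44-fold, adjusted p = 6.95e-05), and NCU07068 at 0.890, 0.834 and 0.650 FPKM in 24 μM sulfate and 3.43, 5.92 and 5.43 FPKM in sulfur starvation (6.23-fold, adjusted p = 2.30e-05). Both were higher in every starved library. NCU06618, annotated as a metallopeptidase, rose 3.10-fold (adjusted p = 8.30e-06), and NCU06915, NCU08145, NCU09423 and NCU08178 rose 9.45-fold, 4.33-fold, 7.21-fold and 3.22-fold. NCU06915 shares 1313 bases with NCU06914, which was at 77.96 and 70.5 FPKM. NCU07448 and NCU03534 had at most 1 implied read in each 24 μM sulfate library and were at least 7.996-fold and 8.13-fold higher in sulfur starvation. NCU03373 rested on at most 7 implied reads in any wild-type library. It was at least 1.48-fold higher.

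4 of the 10 largest falls under 10 FPKM were loci that share over 1000 bases with a neighbor. NCU07895 was measured at 5.99, 4.31 and 3.78 FPKM in 24 μM sulfate and 0.367, 0.105 and 0.322 FPKM in sulfur starvation, a fall of 17.7-fold, while *opt-3*, with which it shares 1905 bases, rose 8.70-fold. NCU03764 fell 17.2-fold beside NCU03765 (11.2 and 12.2 FPKM), a ratio of starved to 24 μM sulfate of 0.0582 that was 0.0873 without starved replicate 1 and 0.0344 without starved replicate 3. NCU02675 fell 2.21-fold beside NCU02676 (10.2 and 9.85 FPKM). NCU00079, at least 12.2-fold lower in sulfur starvation, shares 1919 bases with NCU00078. The other 6 shared no bases with another locus, namely NCU06063 (3.47-fold), NCU01620 (3.02-fold), NCU04998 (2.81-fold), NCU04697 (3.26-fold), annotated as a cyanide hydratase, NCU16350 (2.28-fold) and NCU03157 (2.51-fold). Over all calls, 332 genes shared bases with another locus, and for 40 of them the neighbor was called in the other direction.

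Some of the 2-fold changes lay side by side in the genome. There were 17 runs of adjacent genes that rose, holding 44 genes, and 1 run of falls, NCU06063 and *sit-9*. The longest run held 7 genes on chromosome VII, from NCU05883 through *mfs-15*, *mox-5*, NCU05886, NCU05887 and NCU05888 to NCU11305, with rises from 20.3-fold to 1253-fold. The 20.3-fold is that of NCU11305 and rests on a level near 0 in 24 μM sulfate. It was 13.6-fold without 24 μM sulfate replicate 1 or replicate 2, and had no ratio without replicate 3. On the log2(FPKM + 1) scale NCU11305 differed by only 1.03 to 1.21 when 1 library was left out. A run of 4 on chromosome V joined *trm-50*, NCU01056, *tdo-2* and NCU01058, and a run of 3 on chromosome III joined *suc-2*, *mfs-29* and *dam-2*. In the run of 4, 2 genes share bases with another locus, as does 1 in the run of 7. NCU01056 rose 5.33-fold, and 3.03-fold to 8.31-fold when 1 wild-type library was left out. The part of overlapping loci in the runs was not tested. These runs were found after the calls were made and were not tested.

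Genes beside a CYS-3 binding site of the study's in vitro DAP-seq experiment, in which genomic DNA fragments are captured on the protein, were 531 of the tested genes. Of these 131 rose (24.7% against 8.4% of all tested genes) and 28 fell (5.27% against 7.78%). At 2-fold or more 83 of the 531 rose and 1 fell, where 2.47% and 0.439% of all tested genes did so. The median log2 difference of the list was 0.06. Among these 531 genes, leaving out 1 wild-type library gave 108 to 134 rises. The number of falls went from 7 (without 24 μM sulfate replicate 1) to 44 (without 24 μM sulfate replicate 2).

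The same change of medium was compared between the wild type and the *cys-3* mutant through the interaction of strain and medium, which passed the test for 683 genes (8.83% of those tested). In the mutant alone, 11 genes differed between the media (1152 at an unadjusted p under 0.05). Of the wild-type rises of at least 2-fold, 165 of 191 differed between the strains, and their median log2 difference was 1.42 in the wild type and 0.03 in the mutant. Of the falls of at least 2-fold, 12 of 34 differed, with medians of -1.06 and -0.28. Under 1.5-fold, 112 of 289 rises and 129 of 386 falls differed. The interaction uses the wild-type libraries on which these genes were called, so the shares are a description. Without starved replicate 3 or 24 μM sulfate replicate 1 of the wild type, the interaction count over all genes was 422 or 441, and without the mutant's starved replicate 3 it was 423.

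*aod-1* had the second smallest interaction p among called changes under 2-fold and moved in opposite directions. In the mutant it was measured at 42.1, 50.97 and 47.3 FPKM in 24 μM sulfate and 66.8, 72.1 and 73.1 FPKM in sulfur starvation, a rise (adjusted p = 0.0286) where the wild type fell, and the strains differed by -1.14 on the log2 scale (SE 0.12, adjusted p = 8.87e-05). NCU07740 did the same, at 7.09, 6.75 and 7.20 FPKM in 24 μM sulfate and 3.17, 4.03 and 2.94 FPKM in sulfur starvation in the wild type and 5.33, 5.19 and 7.41 FPKM in 24 μM sulfate and 12.7, 12.6 and 9.77 FPKM in sulfur starvation in the mutant. The list of amino acid synthesis genes had 19 of 45 interactions, against 8.83% of all tested genes, with medians of -0.32 in the wild type and 0.15 in the mutant. For mitochondrial protein import, 1 of 21 genes differed between the strains, which is not above the 8.83% of all tested genes, and the medians were -0.27 and -0.21. Of *hsp30* the mutant had 197, 193 and 212 FPKM in 24 μM sulfate and 71.7, 88.5 and 142 FPKM in sulfur starvation, and the interaction did not pass the test (adjusted p = 0.143), which does not show that the strains acted alike.

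**Figure D5:**
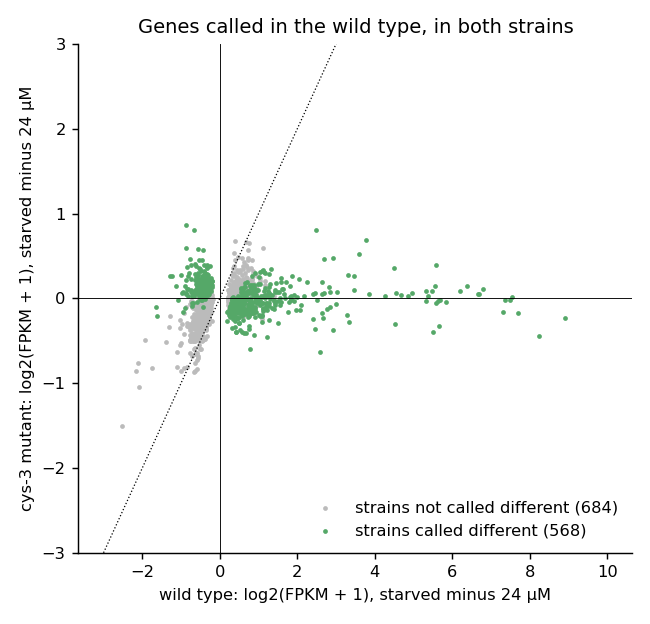
Each point is 1 of the 1252 genes called in the wild type, with its difference in log2(FPKM + 1) between the media in the wild type against that in the *cys-3* mutant; green marks the 568 genes whose change differed between the strains, and the dotted line marks equal change. The strong wild-type rises lie close to 0 in the mutant.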

How the data were processed

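RNA from 12 mycelial cultures was grouped by strain and medium from the sample labels. The authors aligned unstranded single-end reads of poly(A) RNA with HISAT2 and deposited Cufflinks FPKM values with confidence intervals for 9758 genes. The submitters' processing notes name HISAT2 2.1.0, Cufflinks 2.2.1 and Cuffnorm 2.2.1. Of the genes, 9757 matched the RefSeq table of assembly NC12 by locus tag, 9750 of them with the files' coordinates. Gene and chromosome names came from that table (1118 symbols) and the study's annotation (129 further names). FPKM sums per library were 561602 to 584215, and the lack of counts means that read numbers were implied from the interval, as the square of 2F/(H - F) for an FPKM F with upper bound H. Among the 16475 of these that were at most 20, 77.3% were whole to within 0.05.

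Log2(FPKM + 1) values of all 12 libraries were fitted with limma 3.58.1 in R 4.3.3, with 1 mean per group and a variance trend, on genes whose mean reached 1 FPKM in some group. Folds are ratios of group mean FPKM, and a group at or under 3 implied reads in every library gives a lower bound that covers counting error only. This applied to 11 called genes. In 5 simulated data sets, 62.4% of log2 changes of 0.5 and 93.4% of changes of 1 were recovered, with 52 false calls in all. The simulated noise was normal and independent between genes and libraries, which was not shown for the real libraries. These rates check the code and do not give the error rate of the calls made here. Genes were named by rule: the 15 largest rises and falls at 10 FPKM or more, the 10 largest under 10 FPKM, the 10 most abundant of each direction under 2-fold, the 4 clearest of each list, the regulators and sulfate reduction genes, and the 10 most abundant genes. Overlapping neighbors, genes of adjacent runs, NCU07740 and further list members were named after their values were seen. The members and lists were chosen with earlier results of these data known. Alternatives were another pseudocount, other FPKM minimums and scalings, the wild-type libraries alone, the replicate number as a block, no trend, array weights, leaving out each library, and limma-voom on those implied reads, chosen after seeing the data. Protein composition and lists that need product names were not analysed here. Tables were handled with pandas and drawn with matplotlib.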

Additional observations from a re-analysis of the deposited data

Results flagged for a closer look

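In 683 genes the change from 24 μM sulfate to sulfur starvation differed between the wild type and the *cys-3* mutant, by the interaction term of limma at an adjusted p under 0.05. The clearest among wild-type changes under 2-fold and among falls of at least 2-fold are given by the log2 difference of the wild type minus that of the mutant. For NCU05419 it was 0.93 (SE 0.09, adjusted p = 3.72e-05), with group means in 24 μM sulfate and in sulfur starvation of 14.95 and 27.3 FPKM in the wild type and 16.6 and 15.4 FPKM in the mutant. For *aod-1* it was -1.14 (SE 0.12, adjusted p = 8.87e-05), with group means in 24 μM sulfate and in sulfur starvation of 52.5 and 35.5 FPKM in the wild type and 46.8 and 70.6 FPKM in the mutant. For NCU03084 it was 0.89 (SE 0.11, adjusted p = 1.88e-04), with group means in 24 μM sulfate and in sulfur starvation of 54.7 and 94.1 FPKM in the wild type and 55.3 and 50.8 FPKM in the mutant. For NCU01689 it was 0.73 (SE 0.09, adjusted p = 1.90e-04), with group means in 24 μM sulfate and in sulfur starvation of 102 and 154 FPKM in the wild type and 104 and 94.8 FPKM in the mutant. For NCU09216 it was 0.70 (SE 0.08, adjusted p = 2.11e-04), with group means in 24 μM sulfate and in sulfur starvation of 46.4 and 64.9 FPKM in the wild type and 44.6 and 38.03 FPKM in the mutant. For NCU07740 it was -1.75 (SE 0.19, adjusted p = 1.19e-04), with group means in 24 μM sulfate and in sulfur starvation of 7.01 and 3.38 FPKM in the wild type and 5.98 and 11.7 FPKM in the mutant. For NCU07888 it was -1.03 (SE 0.19, adjusted p = 0.00492), with group means in 24 μM sulfate and in sulfur starvation of 25.5 and 12.5 FPKM in the wild type and 24.4 and 25.7 FPKM in the mutant. For NCU16350 it was -1.29 (SE 0.24, adjusted p = 0.00621), with group means in 24 μM sulfate and in sulfur starvation of 9.22 and 4.05 FPKM in the wild type and 8.94 and 11.1 FPKM in the mutant. *aod-1* and NCU07740 passed the test in both strains with opposite signs, and the cause was not tested.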

How the results depend on the processing

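Of 158 called genes that were named or chosen by the naming rule, 104 passed it under every alternative in which they were tested, and none changed direction. Leaving out 1 library gave 690 to 1503 calls in all (446 to 749 rises and 244 to 754 falls), 192 to 263 at 2-fold or more (165 to 222 rises and 17 to 54 falls), and 422 to 730 interactions. Array weights gave 2124 calls (1052 rises, 1072 falls) and 1180 interactions, and the wild-type libraries alone gave 717 calls with 276 falls. A minimum of 10 FPKM left 19 falls of at least 2-fold. The cause of these shifts was not tested, except that the last tests fewer genes. Upper-quartile, median-of-ratios and quantile scaling, a pseudocount of 0.1, no minimum and no trend kept each of these counts within 1.5 times.

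The deviations of same-numbered wild-type libraries from their group means correlated at -0.25, -0.43 and 0.07 between the media. Those of differently numbered libraries correlated at -0.21 to 0.39. Libraries of the same number were thus no more alike than others. Whether libraries shared a day or batch under other numbers was not tested. With the replicate number as a block, 1089 genes were called, and 14 of the 158 genes no longer passed.

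Genes that did not pass the test changed sign near 0 on the log2 scale. *nmt-1* was at 0.060 with array weights, 0.0076 with median-of-ratios scaling, 0.164 with quantile normalization and -0.079 to 0.078 when 1 library was left out. *aac* was at -0.039 with array weights, -0.020 with limma-voom and -0.027 to 0.096 without 1 library. *tef-1* was at 0.072 with quantile normalization. Without 1 library *cmt* was at -0.250 to 0.0048, NCU16635 at -0.015 to 0.228 and NCU02676 at -0.140 to 0.033.

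The depth limits the genes of low level, of which 9 with a wild-type average under 1 FPKM passed the test. The cysteine and methionine share of the encoded protein and its alternatives were not run.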

Other observations

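NCU03534 (assembly NC12, chromosome II, 333578 to 334814) lies beside *cys-3* (326313 to 331203). In the wild type it was measured at 0.0562, 0 and 0.0591 FPKM in 24 μM sulfate and 0.942, 2.1 and 1.77 FPKM in sulfur starvation, whereas in the *cys-3* mutant it was at 10.7, 12.6 and 11.7 FPKM in 24 μM sulfate and 14.2, 11.4 and 14.4 FPKM in sulfur starvation. The mutant libraries lay above the wild-type libraries in both media. The mutant carries the resistance cassette in *cys-3*, and its part in these values was not tested.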
